A study of Mus with 18 samples.

Results

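The mRNA levels of 10 genes that encode the main building blocks of the lens capsule were followed in lens epithelial cells (LECs) directly after lens injury and 6 h later. The genes are the 6 collagen IV chains Col4a1 to Col4a6, the laminin chains Lamb1 and Lamc1, the proteoglycan perlecan (Hspg2) and nidogen 1 (Nid1). They were taken by their Ensembl gene IDs, 10 of the 55416 IDs in each count table, and not by their values, although the list was drawn up with earlier results of these data known. All 10 passed the filter on low counts in every comparison. The experiment removed the fiber cell mass from the mouse lens, leaving the capsule and its attached epithelium in the eye, as cataract surgery does. RNA was sequenced from capsules taken directly after this removal (0 h) or 6 h post cataract surgery (PCS). The mice were wild type (WT), Egr1KO or FosBcKO, with 3 libraries in each of the 6 groups and 18 in all. Each library pooled 5 capsules, and the second eye of a mouse was operated 6 h after the first so that both could be harvested together. Since the pools may share mice between times, and the labels do not say which do, p-values measure the spread between pools.

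All mice were C57BL/6 per the labels and aged 3 to 5 months, but the stock name that the study's methods give for Egr1KO also names a 129 background, and an effect of background cannot be told apart from that of the genotype. WT mice carried neither alteration. Egr1KO mice were homozygous for a germline Egr1 null allele with a neo cassette in exon 2, so Egr1 was lost from every tissue and not from the lens alone. FosBcKO mice carried Fosb alleles with loxP sites around exons 2 and 3, deleted by the MLR10 cre transgene, which a modified alpha-A crystallin promoter drives in the lens. No group held mice with the cre transgene and intact Fosb alleles, so the effect of the transgene cannot be told apart from that of the deletion.

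The lens capsule is a thick basement membrane that the LECs secrete and sit on, and it is the surface on which residual LECs migrate after surgery. Basement membranes are built on a laminin polymer bound to cell surface receptors, over which a covalently crosslinked collagen IV network is laid. Nidogens and perlecan bridge the layers. Collagen IV chains assemble into triple helices of set composition, and their genes lie in head-to-head pairs, Col4a1 with Col4a2, Col4a3 with Col4a4, and Col4a5 with Col4a6. In the RefSeq mouse annotation each pair shared a chromosome with 0 protein-coding genes between its members. The alpha1 and alpha2 chains make the network found in most basement membranes, and the other chains make networks of more specialised membranes, such as those of the lens and the kidney glomerulus.

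Libraries held 9609295 to 13871592 counted read pairs, of which the 10 genes together took 1.13% to 3.06%. At 0 h the WT libraries gave a share of 2.30% to 2.78%, those of Egr1KO 2.64% to 2.84% and those of FosBcKO 2.69% to 3.06%. At 6 h PCS it was 2.17%, 2.26% and 1.13% in WT replicates 1 to 3, 2.62%, 1.85% and 2.62% in Egr1KO, and 1.32%, 1.66% and 2.36% in FosBcKO. WT replicate 3 at 6 h gave the lowest level of all 18 libraries for all 10 genes. It is one of 4 libraries at 6 h, with Egr1KO replicate 2 and FosBcKO replicates 1 and 2, in which the summed share lay below 2%. Levels below are a gene's count divided by the library's gene total and multiplied by 1000000 (CPM). They are not corrected for transcript length and are compared between libraries and not between genes. Nor are they scaled by the TMM factors that the tests use, which ran from 0.898 to 1.145. Overlaps between groups given below are thus of CPM alone.

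The counts of the targeted genes are totals over the whole gene, so they do not show whether the altered exons were read, and they did not check the genotype labels. Egr1 stood at 165, 66.3 and 142 CPM in WT replicates 1 to 3 at 0 h and at 2046, 1627 and 1438 CPM at 6 h. In Egr1KO it stood at 285, 106 and 171 CPM at 0 h and at 4463, 2083 and 3472 CPM at 6 h. In FosBcKO it stood at 260, 114 and 565 CPM and then at 2225, 2292 and 3468 CPM. Egr1 was thus read in all libraries and was far higher at 6 h in each genotype. Fosb stood at 7.20 to 26.3 CPM in WT at 0 h and 767 to 1539 CPM at 6 h, at 4.70 to 12.9 and then 464 to 3044 CPM in Egr1KO, and at 4.55 to 18.1 and then 1430 to 1778 CPM in FosBcKO. Against WT at 6 h, Egr1 had a log2 estimate of 1.199 ± 0.393 (SE, FDR 0.132) in Egr1KO and Fosb of 0.73 ± 0.34 (FDR 0.220) in FosBcKO. Neither targeted gene was thus lower in its knockout at 6 h, and the genotype names are those of the labels. By immunofluorescence the study reported loss of Egr1 protein in Egr1KO mice and of FosB protein in FosBcKO LECs. It also reported deletion of the floxed Fosb region by PCR of lens DNA.

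**Figure D1:**
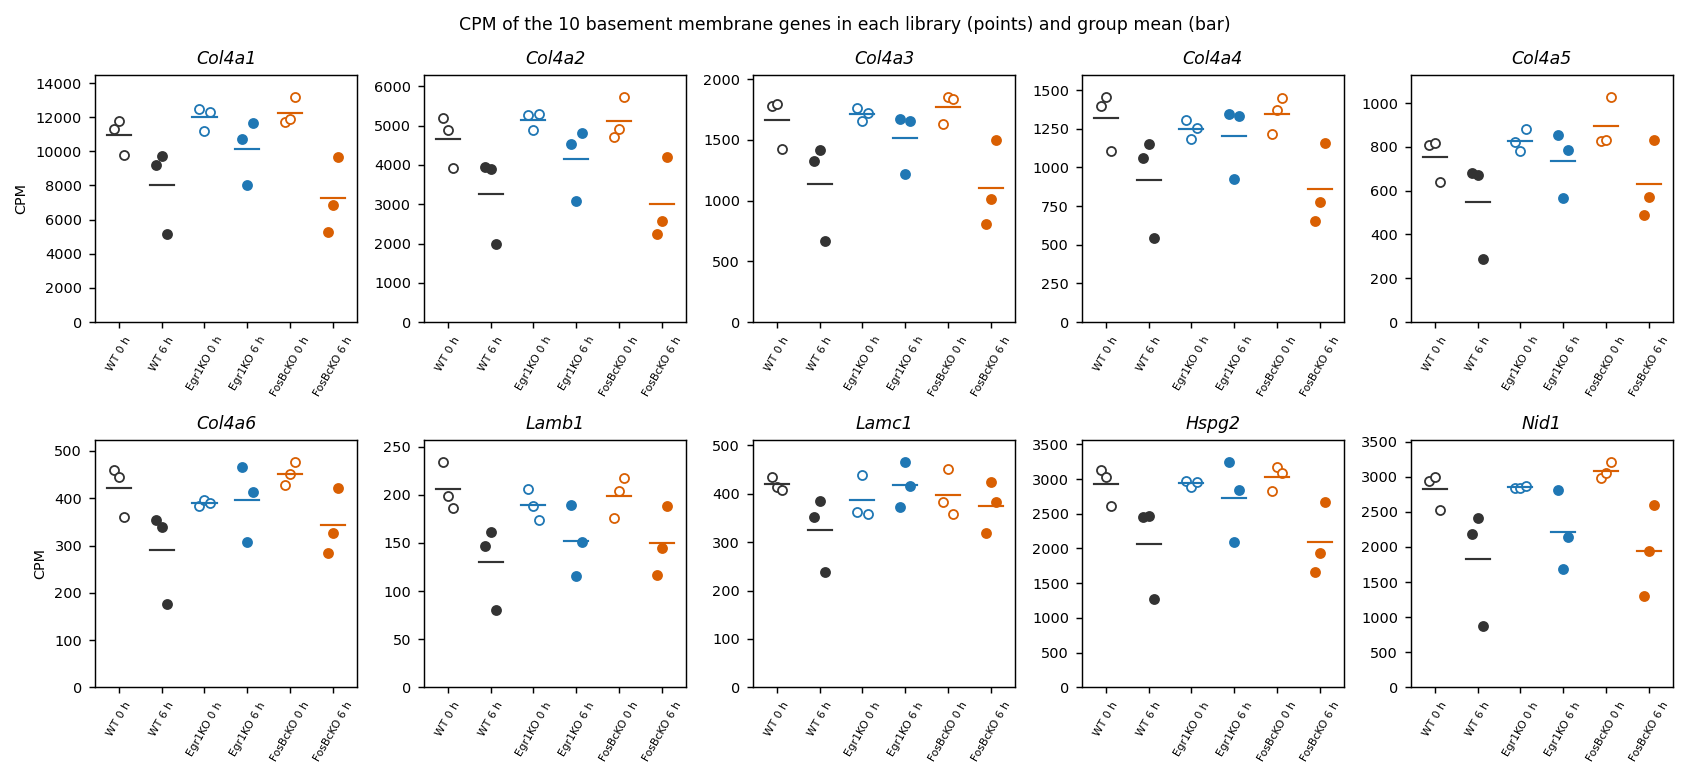
Each panel plots 1 gene, with its level in CPM on a linear axis from 0 against the 6 groups. Points are the 3 libraries of a group (open at 0 h, filled at 6 h PCS) and bars are group means. In 9 of the 10 panels the replicates at 6 h spread widely with 1 or 2 libraries far down, while the 0 h replicates lie close together, and Lamc1 does not share the low point of Egr1KO.

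Col4a1 (ENSMUSG00000031502), which encodes the alpha1 chain of the ubiquitous network, was read at 11334, 11772 and 9807 CPM in WT replicates 1 to 3 at 0 h and at 9221, 9700 and 5142 CPM at 6 h. In Egr1KO the values were 12500, 11185 and 12311 CPM at 0 h and 10710, 8048 and 11639 CPM at 6 h. In FosBcKO they were 11738, 11898 and 13182 CPM at 0 h and 5286, 6867 and 9655 CPM at 6 h. The 6 h libraries lay below all 0 h libraries of their genotype in WT and FosBcKO and overlapped them in Egr1KO. Ordered by mean, the groups ran from FosBcKO at 0 h (12273 ± 791 CPM, SD, n = 3) through Egr1KO at 0 h (11999 ± 711), WT at 0 h (10971 ± 1032), Egr1KO at 6 h (10132 ± 1864) and WT at 6 h (8021 ± 2505) to FosBcKO at 6 h (7269 ± 2212). Every neighbouring pair in this order overlapped.

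Its partner Col4a2 (ENSMUSG00000031503), which encodes the alpha2 chain, was read at 5186, 4896 and 3931 CPM in WT at 0 h and at 3937, 3889 and 1982 CPM at 6 h. In Egr1KO it went from 5259.9, 4880.0 and 5308 CPM to 4527, 3092 and 4826 CPM. In FosBcKO it went from 4715, 4913 and 5728 CPM to 2235, 2560.4 and 4201 CPM. The groups separated in both knockouts and overlapped in WT, where the lowest library at 0 h, replicate 3, lay just below the highest at 6 h, replicate 1.

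The 4 remaining collagen IV chains, which make the specialised networks, had the same low libraries. Col4a3 (ENSMUSG00000079465) was read at 1779.6, 1793 and 1424 CPM in WT at 0 h and 1328, 1413 and 666 CPM at 6 h. In FosBcKO it was read at 1631, 1852 and 1839.7 CPM and then at 811, 1013 and 1496 CPM. These groups did not overlap in either genotype, while in Egr1KO 1655 to 1763 CPM at 0 h met 1220.3 to 1676 CPM at 6 h. Col4a4 (ENSMUSG00000067158), whose product assembles with those of Col4a3 and Col4a5, went from 1106 to 1455 CPM in WT to 543 to 1151 CPM, and from 1214 to 1451 CPM in FosBcKO to 654 to 1155 CPM. It was at 1180.5 to 1305 CPM in Egr1KO at 0 h and at 926 to 1345 CPM at 6 h. Col4a4 thus separated by time in FosBcKO alone.

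Col4a5 (ENSMUSG00000031274) was at 640.2 to 817 CPM in WT at 0 h and 288 to 680.0 CPM at 6 h, with 780.2 to 884 and 566 to 855 CPM in Egr1KO and 826.5 to 1028 and 490.1 to 830.5 CPM in FosBcKO. It overlapped between times in all 3 genotypes. Col4a6 (ENSMUSG00000031273) was at 360 to 460 CPM in WT at 0 h and 176 to 355 CPM at 6 h, and at 429 to 476 and 285 to 422 CPM in FosBcKO, without overlap. In Egr1KO the 6 h libraries, at 307 to 466 CPM, reached to either side of the 384 to 395 CPM at 0 h.

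Of the laminin chains, Lamb1 (ENSMUSG00000002900), which encodes the beta1 chain, was read at 234, 198 and 186 CPM in WT at 0 h and at 147, 161 and 80.6 CPM at 6 h. It was at 173 to 206 CPM and then 115 to 189 CPM in Egr1KO, and at 176 to 217 and then 117 to 189 CPM in FosBcKO. Only the WT groups were apart. Lamc1 (ENSMUSG00000026478) encodes the gamma1 chain, with which beta1 pairs in most laminins. It was read at 435, 415 and 408 CPM in WT at 0 h and at 352, 385 and 238 CPM at 6 h, and these did not overlap. In Egr1KO it was read at 363, 439 and 359 CPM at 0 h and at 373, 465 and 415 CPM at 6 h, and in FosBcKO at 383, 452 and 359 CPM and then at 319, 425 and 383 CPM. Egr1KO replicate 2 at 6 h, the lowest of its group for the other 9 genes, had the highest Lamc1 level of all 18 libraries.

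Hspg2 (ENSMUSG00000028763), encoding the heparan sulfate proteoglycan perlecan, was read at 3127, 3034 and 2609 CPM in WT at 0 h and at 2448, 2469 and 1279 CPM at 6 h. In Egr1KO it was read at 2971, 2891 and 2955 CPM and then at 3240.1, 2089 and 2844 CPM, and in FosBcKO at 2831, 3170.3 and 3094 CPM and then at 1664, 1928 and 2667 CPM. WT and FosBcKO separated by time and Egr1KO did not. Nid1 (ENSMUSG00000005397), encoding the linker nidogen 1, went from 2934, 3003 and 2522 CPM in WT to 2188, 2411 and 867 CPM. In Egr1KO it went from 2845, 2844 and 2865 CPM to 2808, 1685 and 2142 CPM, and in FosBcKO from 2985, 3048 and 3205 CPM to 1306, 1938 and 2602 CPM. By CPM, without TMM scaling, Nid1 was the only gene of the 10 whose 6 h libraries lay below the 0 h libraries in all 3 genotypes. Of all genes tested, 19.8% in WT, 25.2% in Egr1KO and 20.1% in FosBcKO lay so. The share that did in all 3 was not counted.

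The replicates at 0 h were more alike than those at 6 h. The coefficient of variation across 3 replicates had a median over the 10 genes of 12.3% in WT, 4.80% in Egr1KO and 7.99% in FosBcKO at 0 h. At 6 h it was 34.1%, 20.5% and 29.2%. For Nid1 in Egr1KO at 0 h it was 0.427%, and the 45.8% of Nid1 in WT at 6 h was the highest value of any gene and group.

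To ask whether injury changed these genes, 6 h was compared with 0 h within each genotype by edgeR's quasi-likelihood F-test, where a gene was called at a false discovery rate (FDR) of at most 0.05 over all genes tested. In WT all 10 genes had lower estimates at 6 h, with log2 fold changes of -0.75 to -0.46 (median -0.61, against -0.02 over all genes tested), but 0 of 10 passed the test. In the same test 26.2% of 15440 genes were called, and 9.72% were called lower. Of the 10 genes 7 lay lower at 6 h without overlap between times, as did 19.8% of all genes tested. Lamb1 came closest with -0.75 ± 0.29 (SE) and an FDR of 0.0843, the one member with an unadjusted p under 0.05, against 41.2% of all genes. Col4a1 had -0.54 ± 0.37 and an FDR of 0.311. The labels do not pair the libraries, but in WT the replicate numbers were taken to pair them, from correlations in these same counts. A fit with the replicate block called 2 genes lower, Lamb1 (-0.83, FDR 0.0198) and Col4a6 (-0.71, FDR 0.0398). Lamb1 alone was called by DESeq2 (FDR 0.0452) and by edgeR without WT replicate 3 at 6 h (-0.47, FDR 0.0359), and no gene of the 10 was called by the exact test. The median over the 10 genes was -0.305 without WT replicate 3 at 6 h.

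In FosBcKO the estimates were -0.77 to -0.07 (median -0.59, against 0.05 over all genes), all 10 below 0, and 0 of 10 passed, where 21.8% of 15475 genes did and 7.7% were lower. Here 7 of the 10 lay lower without overlap between times, against 20.1% of all genes, and 7 had an unadjusted p under 0.05, against 37.3% in either direction. The ubiquitous chains had the lowest estimates, Col4a2 at -0.77 ± 0.26 (FDR 0.0534) and Col4a1 at -0.75 ± 0.26 (FDR 0.0589), followed by Col4a3 at -0.68 ± 0.23 (FDR 0.0588). Lamc1 stood at the other end with -0.07 ± 0.18 (FDR 0.81). These FDRs lay just above the threshold. DESeq2 called 6 genes (Col4a1, Col4a2, Col4a3, Col4a4, Hspg2 and Nid1) and edgeR's exact test called the first 4 of these, all lower. Without FosBcKO replicate 3 at 6 h, the library of that group with the highest share of the 10 genes, 9 genes were called lower, all but Lamc1, and the genes called lower over the whole table went from 1192 to 2107. Without replicate 1 at 6 h Col4a1 alone was called, with 730 lower over the whole table.

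In Egr1KO the estimates ran from -0.30 (Nid1, SE 0.22) to 0.16 (Lamc1, SE 0.13), 7 of 10 below 0, with a median of -0.11 against 0.00 over all genes. None of the 10 was called or had an unadjusted p under 0.05 (37.6% of all genes had one), against 21.2% called of 14586 genes (9.04% in the lower direction), and FDRs ran from 0.352 to 0.965. DESeq2 and the exact test also called 0. Only Col4a2 and Nid1 of the 10 lay lower without overlap between times, against 25.2% of all genes. Without Egr1KO replicate 1 at 6 h, Nid1 (-0.56, FDR 0.0314) and Lamb1 (-0.49, FDR 0.0489) were called lower, and the genes called lower over the whole table went from 1319 to 2432. The median over the 10 genes was 0.08 without Egr1KO replicate 2 and -0.25 without replicate 1.

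**Figure D2:**
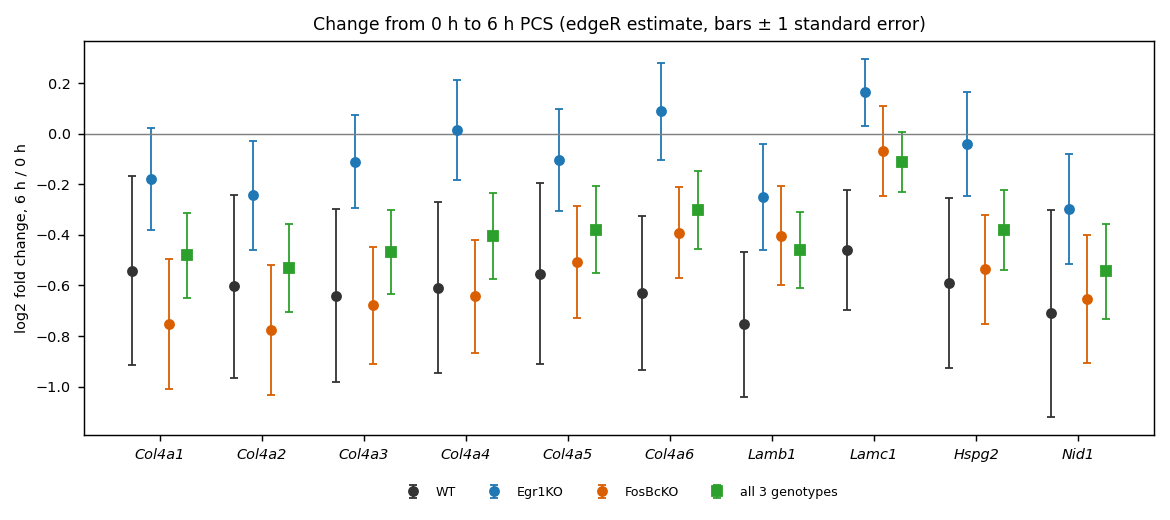
The log2 fold change from 0 h to 6 h PCS is plotted for each gene, as the edgeR estimate with bars of 1 standard error, in WT, Egr1KO, FosBcKO and over the 3 genotypes. The WT and FosBcKO estimates lie below 0 for all 10 genes, the Egr1KO estimates lie between -0.30 and 0.16, and Lamc1 is the gene nearest 0 over the 3 genotypes.

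Over the 3 genotypes, with genotype as an additive term and the spread estimated from all 18 libraries, 5 of the 10 genes fell. These were Nid1 (-0.54 ± 0.19, SE, FDR 0.0202), Col4a2 (-0.53 ± 0.17, FDR 0.015), Col4a1 (-0.48 ± 0.17, FDR 0.0211), Col4a3 (-0.47 ± 0.17, FDR 0.024) and Lamb1 (-0.46 ± 0.15, FDR 0.0157). In this test 51.5% of 17469 genes were called and 22.6% were lower, and the median was -0.43 for the 10 genes and 0.08 for all genes. The other 5 genes also had lower estimates but did not pass: Col4a4 (-0.40 ± 0.17, FDR 0.0537), Hspg2 (-0.38 ± 0.16, FDR 0.0502), Col4a5 (-0.38 ± 0.17, FDR 0.0693), Col4a6 (-0.30 ± 0.15, FDR 0.109) and Lamc1 (-0.11 ± 0.12, FDR 0.454). None of the 10 changed by more than 2-fold, where 22.1% of all genes were called and did. The number called was 9 without Egr1KO replicate 1 at 6 h and 8 without either Egr1KO replicate 3 or FosBcKO replicate 3 at 6 h.

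Because the low libraries were low for nearly all 10 genes at once, the counts of each gene were also set against Col4a1 within the same library, which removes the library's own level. These ratios compare libraries and carry no correction for transcript length. The Col4a2 count was 42.5% ± 2.93 (SD, n = 3) of the Col4a1 count in WT at 0 h and 40.4% ± 2.10 at 6 h, and group means in the knockouts lay between 40.7% and 42.9%. In single libraries this ratio ran from 37.3% to 45.75%, while each of the 2 genes differed more than 2-fold between its lowest and highest library. The change over time was -3.89% (exact permutation test within genotype, two-sided, p = 0.132, adjusted p = 0.336). The Lamc1 count moved apart from that of Col4a1, from 3.84% ± 0.321 to 4.14% ± 0.425 in WT, from 3.25% ± 0.586 to 4.28% ± 1.30 in Egr1KO and from 3.26% ± 0.538 to 5.40% ± 1.25 in FosBcKO. This ratio was 31.6% higher at 6 h (exact permutation p = 0.011), in the same direction in all 3 genotypes. After adjustment over the 33 ratio tests the p was 0.165, and 0 of the 33 passed.

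The other head-to-head pairs differed in how closely their counts held together. The Col4a4 count was 79.0% ± 1.86 (SD, n = 3) of that of Col4a3 in WT at 0 h and 80.9% ± 0.976 at 6 h. It went from 72.8% ± 1.36 to 79.0% ± 2.69 in Egr1KO and from 75.8% ± 2.65 to 78.2% ± 2.15 in FosBcKO. The difference of this ratio at 6 h from 0 h was 4.66% (exact permutation p = 0.00525, adjusted p = 0.165). Across single libraries it ran from 71.3% to 81.5%. Col4a6 stood at 44.1% to 61.1% of Col4a5 in single libraries and at 47.2% to 55.9% across group means, a wider relative range. The Col4a5 count relative to Col4a1 was 18.5% higher in FosBcKO than in WT over both times (exact permutation p = 0.02, adjusted p = 0.165), and most of this lay at 6 h. The log2 difference was 0.08 at 0 h, where 6.53% to 7.14% in WT overlapped 6.996% to 7.795% in FosBcKO. It was 0.41 at 6 h, where 5.59% to 7.37% in WT did not overlap 8.34% to 9.27% in FosBcKO. The adjusted p did not pass.

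**Figure D3:**
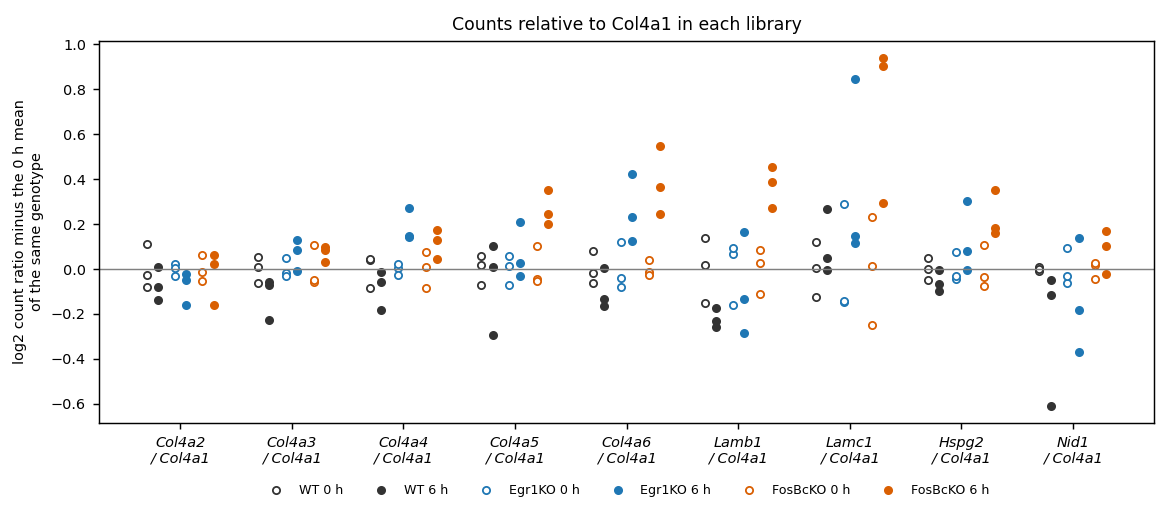
For each of 9 genes the log2 of its count divided by the Col4a1 count is plotted per library, after subtracting the mean of the 0 h libraries of the same genotype (open points 0 h, filled points 6 h). The Col4a2 points stay near 0 at both times, while the 6 h points for Lamc1 reach above those of all other genes, in 1 Egr1KO and 2 FosBcKO libraries.

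To ask whether loss of Egr1 or FosB altered these genes, each knockout was compared with WT at the same time by edgeR's exact test. Both knockouts share the WT libraries. At 0 h, Egr1KO estimates ran from -0.10 (Lamb1) to 0.16 (Col4a2), with 0 of 10 called, against 0.543% of 14373 genes, and FDRs of 0.983 to 1. FosBcKO estimates at 0 h ran from -0.08 (Lamc1) to 0.24 (Col4a5, SE 0.14), with 0 called, against 0.392% of 14556 genes, and FDRs of 1. The standard errors at 0 h, from the quasi-likelihood fit, were 0.14 or less, and a 2-fold difference would have been many times these errors. The calls came from the exact test, which does not use them. Col4a5 was the one gene whose FosBcKO libraries at 0 h, at 826.5, 832 and 1028 CPM, all lay above the WT libraries at 809, 817 and 640.2 CPM, as did those of 7.63% of all genes tested.

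At 6 h all 10 genes had higher estimates in Egr1KO than in WT, from 0.43 ± 0.34 (SE, Lamb1) to 0.66 ± 0.35 (Col4a6), with a median of 0.58 against 0.03 over all genes. None passed, FDRs were 0.564 to 0.824, all 10 overlapped, and 0.743% of 15618 genes were called. The smallest FDR was that of Lamc1 (0.56 ± 0.27). The median was 0.30 without WT replicate 3 and 0.78 without either WT replicate 2 or Egr1KO replicate 2 of the 6 h libraries, and 0.38 when libraries were scaled by their totals alone, where the median of all genes was -0.18. In FosBcKO at 6 h the estimates were -0.03 ± 0.43 (Col4a1) to 0.36 ± 0.34 (Col4a6), with FDRs of 0.713 to 1 and 0 of 10 called, against 6.26% of 16155 genes. Their median was 0.17, and it turned to -0.18 without WT replicate 3 and to -0.07 without FosBcKO replicate 3. It was 0.31 without WT replicate 1, 0.40 without WT replicate 2 and 0.39 without FosBcKO replicate 1. In all 4 comparisons 0 of the 10 had an unadjusted p under 0.05, and DESeq2 and the quasi-likelihood test called 0.

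**Figure D4:**
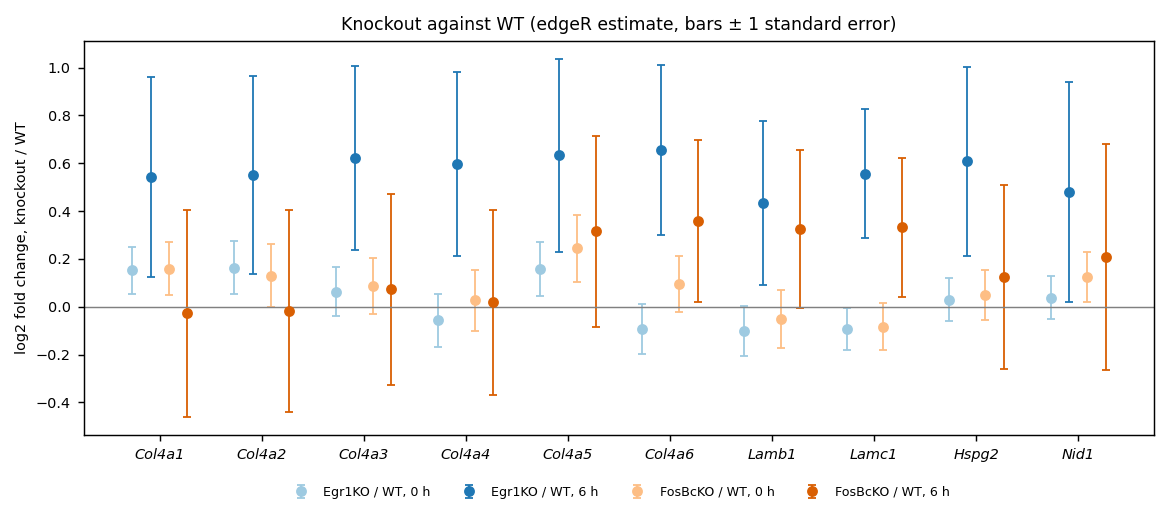
Log2 fold changes of each knockout against WT at 0 h and at 6 h PCS are plotted per gene as edgeR estimates with bars of 1 standard error. At 0 h all estimates lie between -0.10 and 0.24 with short bars, and at 6 h the bars are 2 or more times as long, with the Egr1KO estimates between 0.43 and 0.66.

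Whether the change from 0 h to 6 h itself differed from WT was tested as an interaction over all 18 libraries. For Egr1KO the 10 terms ran from 0.34 ± 0.43 (SE, Col4a2) to 0.70 ± 0.36 (Col4a6), with FDRs of 0.738 to 0.896. Lamc1 (0.60 ± 0.27) was the one gene with an unadjusted p under 0.05. For FosBcKO they ran from -0.27 ± 0.41 (Col4a1) to 0.34 ± 0.27 (Lamc1), with FDRs of 0.847 to 1. None of the 10 was called in either, nor by DESeq2, and 0 of 17469 genes were called in each (1141 and 1171 had an unadjusted p under 0.05). Over all genes DESeq2 called 1 higher and 1 lower for Egr1KO, and 34 higher and 6 lower for FosBcKO. The lower estimates of WT and FosBcKO and the smaller ones of Egr1KO were therefore not shown to differ.

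The 10 genes were set beside other basement membrane genes through ID and symbol pairs listed by the study. These lists are partial and hold mainly genes that ranked high in these same comparisons, so their counts are not independent evidence. Of 20 other basement membrane components 12 could be paired. Over the 3 genotypes 2 of them rose and 1 fell, where 51.5% of all genes tested were called. Agrn, encoding the proteoglycan agrin (0.56 ± 0.10, FDR 0.0001386), and the laminin alpha5 chain gene Lama5 (0.42 ± 0.10, FDR 0.002374) rose. Ntn4, which encodes the laminin-binding netrin 4, fell (-0.997 ± 0.162, FDR 6.279e-05) from 129 to 226 CPM to 46.8 to 119 CPM and was called lower in each genotype.

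The few of these components that were called thus lay in both directions at 6 h. In FosBcKO 6 of 12 rose and Ntn4 fell, in Egr1KO 3 of 11 rose and Ntn4 fell, and in WT Ntn4 alone of 11 was called. Of all genes tested, 21.8% in FosBcKO, 21.2% in Egr1KO and 26.2% in WT were called. Nid2, the paralog of Nid1, rose in FosBcKO (1.56 ± 0.19, FDR 0.001409) and Egr1KO (0.89 ± 0.22, FDR 0.0276). In FosBcKO against WT at 6 h, 7 of these 12 components were higher, led by Fbln1 (3.45 ± 0.42, FDR 2.461e-13), Col18a1 (3.43 ± 0.50, FDR 1.432e-09) and Nid2 (3.40 ± 0.45, FDR 4.075e-10), encoding fibulin 1, collagen XVIII and nidogen 2. Of all genes tested 6.26% were called there. In the same comparison 4 of 5 leukocyte, 1 of 4 pigment cell and 1 of 5 fibroblast and pericyte markers were called higher, with values given among the markers. The 10 capsule genes compared in the same libraries had estimates of 0.36 or less. Col18a1 varied widely within WT at 0 h, at 286, 15.6 and 465 CPM. In Egr1KO against WT at 6 h, Col18a1 (1.76 ± 0.45, FDR 0.02785) and Fbln1 (1.67 ± 0.38, FDR 0.009061) were higher, and in FosBcKO against WT at 0 h Hmcn1, encoding hemicentin 1, was (1.09 ± 0.17, FDR 0.0002024). Of all genes tested 0.743% and 0.392% were called in these comparisons.

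Of 14 genes for folding, modifying and crosslinking collagen IV, 2 could be paired through the same partial lists, both lysyl hydroxylase genes. Over the 3 genotypes Plod1 fell by 0.36 ± 0.13 (SE) and Plod2 by 0.40 ± 0.13 on the log2 scale (FDRs 0.03195 and 0.01225). In that test 51.5% of all genes were called and 22.6% were called lower. Of 9 receptor genes 7 were paired and 1 was called, the laminin-binding integrin chain gene Itga3 (-0.39 ± 0.10, FDR 0.00255). Itgb1, the beta1 integrin chain shared by the collagen and laminin receptors, had -0.17 ± 0.14 (FDR 0.321). Bcam, encoding a receptor for the laminin alpha5 chain, was higher at 6 h than WT in FosBcKO (2.77 ± 0.29, FDR 3.958e-14) and in Egr1KO (1.55 ± 0.29, FDR 0.003679), and rose with time in FosBcKO (0.88 ± 0.18, FDR 0.01009).

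The 10 genes, Lamc1 less than the others, shared a pattern over libraries beyond the group means. Over the 18 libraries, the gene most alike to Col4a1 among 17468 others, by Pearson correlation of log2 CPM, was Col4a2 (r = 0.991). The next 4 were ENSMUSG00000036256 (r = 0.988), Col4a3 (r = 0.988), ENSMUSG00000018593 (r = 0.986) and ENSMUSG00000027848 (r = 0.980), of which the 3 given by ID had no symbol in the pairs used. In each of the 3 head-to-head pairs, each partner was the other's closest gene, with r = 0.992 for Col4a3 and Col4a4 and r = 0.977 for Col4a5 and Col4a6. Among the genes most alike to Col4a1, Col4a4 ranked 6, Hspg2 7, Nid1 26, Col4a5 29, Col4a6 123 and Lamb1 171. Lamc1 ranked 2136 (r = 0.675). After group means were subtracted, r with Col4a1 was 0.93 to 0.99 for the other 8 genes and 0.65 for Lamc1. The libraries share depth and composition, and a library low in one of these genes was low in most others, so these correlations describe libraries and are not separate tests. The gene most alike to Lamc1 was ENSMUSG00000022865 (r = 0.938), Cd44 ranked 2 (r = 0.9235) and Itgb1 ranked 4 (r = 0.911).

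Markers of cell types also differed between 0 h and 6 h. They were paired through the same partial lists, so counts of markers called are not independent evidence. Over the 3 genotypes 51.5% of all genes tested were called and 22.6% were called lower. In bulk RNA, fewer cells of a type and less RNA per cell cannot be told apart. The LEC transcription factor genes Pax6 and Foxe3, the 2 of 5 lens epithelium markers that were paired, summed to 703 to 814 CPM in WT at 0 h and 374 to 506 CPM at 6 h. They summed to 668 to 699 and then 288 to 767 CPM in Egr1KO, and to 739 to 946 and then 526 to 805 CPM in FosBcKO. Pax6 fell over the 3 genotypes (-0.56 ± 0.17, SE, FDR 0.01188), a change of the size of the collagen IV estimates, and Foxe3 had -0.43 ± 0.19 (FDR 0.06475). None of the 5 lens fiber markers was paired.

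All 4 paired endothelial markers of 5 rose over the 3 genotypes, where 51.5% of all genes tested were called. On the log2 scale Cdh5 rose by 4.05 ± 0.59, Pecam1 by 2.82 ± 0.50, Kdr by 2.57 ± 0.35 and Tek by 1.73 ± 0.56 (FDRs 1.845e-05 to 0.01521). Their sum was 3.11 to 7.49 CPM in WT at 0 h and 48.9 to 121 CPM at 6 h, 4.06 to 5.47 and then 10.8 to 30.2 CPM in Egr1KO, and 9.43 to 15.4 and then 31.2 to 97.9 CPM in FosBcKO. The 2 highest sums were in WT replicate 3 and FosBcKO replicate 1 at 6 h, which had the 2 lowest shares of the 10 capsule genes. Kdr made up most of each of these sums. Pecam1 was at 0 in 1 library at 0 h and Cdh5 at 0 in 3. All 4 paired pigment cell markers of 5 rose in the same test (log2 changes of 1.37 to 2.15), against 51.5% of all genes called. These 4 summed to 14.05 to 94.4 CPM in WT at 0 h and 35.5 to 173 CPM at 6 h. The sums were 15.2 to 50.2 and then 94.9 to 311 CPM in Egr1KO, and 29.0 to 72.1 and then 164 to 355 CPM in FosBcKO. The WT library at 6 h with the lowest share of the 10 genes, replicate 3, had the highest pigment sum of its group. The FosBcKO library at 6 h with the lowest share, replicate 1, had the lowest pigment sum of its group.

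Of 7 leukocyte markers 5 were paired and 2 rose, Ptprc (1.49 ± 0.43, FDR 0.006554) and Cd68 (1.64 ± 0.38, FDR 0.00137). Their list summed to 1.42 to 28.6 CPM in WT, 15.7 to 23.4 in Egr1KO and 20.4 to 23.9 CPM in FosBcKO at 0 h, and to 15.8 to 22.8, 21.3 to 37.5 and 37.9 to 42.9 CPM at 6 h. Of 6 fibroblast and pericyte markers 5 were paired and Pdgfrb fell (-0.62 ± 0.19, FDR 0.01008). Their list summed to 328 to 415, 369 to 391 and 446 to 573 CPM at 0 h in WT, Egr1KO and FosBcKO, and to 115 to 240, 151 to 426 and 308 to 546 CPM at 6 h. Pdgfra and Pdgfrb made up most of this sum in WT at 0 h, with means of 175 and 149 CPM. Col1a2, Col1a1 and Dcn had means of 28.4, 5.93 and 3.37 CPM there. Which cells these reads came from was not tested, so the sum is not a measure of fibroblasts or pericytes alone. The corneal keratin gene Krt12, 1 of 2 corneal markers, rose (4.25 ± 1.198, FDR 0.007949), with 0.07 to 198 CPM at 6 h. The part of these cell types in the levels of the 10 genes was not tested.

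Between genotypes at 6 h the marker lists also differed. In FosBcKO against WT, 4 of 5 leukocyte markers were higher (Itgam, Csf1r, Ptprc and Lyz2, log2 changes of 1.47 to 3.68), as were 1 of 4 pigment cell markers (Tyrp1, 1.67 ± 0.41, SE, FDR 0.004308) and 1 of 5 fibroblast and pericyte markers (Col1a2, 3.46 ± 0.28, FDR 7.733e-24). Col1a2 was at 7.26 to 16.6 CPM in WT and 109.5 to 136 CPM in FosBcKO. In Egr1KO against WT, Col1a2 was higher (1.70 ± 0.31, FDR 0.002141) and the endothelial Kdr lower (-2.05 ± 0.44, FDR 0.005159). None of 2 lens epithelium markers was called in either. Of all genes tested, 6.26% were called in FosBcKO against WT and 0.743% in Egr1KO against WT. These are the comparisons in which Fbln1, Col18a1 and Bcam were higher, and the part of the other cell types in that was not tested.

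The share of read pairs that fell in no annotated gene also differed between times. It was 17.8% ± 2.37 (SD, n = 3) in WT, 11.2% ± 2.21 in Egr1KO and 13.2% ± 6.82 in FosBcKO at 0 h, and 25.4% ± 1.87, 21.5% ± 2.19 and 26.3% ± 3.72 at 6 h. In each genotype the 6 h library with the lowest share of the 10 genes had the highest value of its group, 27.4% in WT replicate 3, 24.01% in Egr1KO replicate 2 and 30.5% in FosBcKO replicate 1. At 0 h this held in Egr1KO (replicate 2, 13.5%) and not in the other genotypes. There the library with the lowest share was at 15.2% in WT (replicate 3), the lowest of its group, and at 10.5% in FosBcKO (replicate 1). The part of these read pairs in the levels of the 10 genes was not tested.

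**Figure D5:**
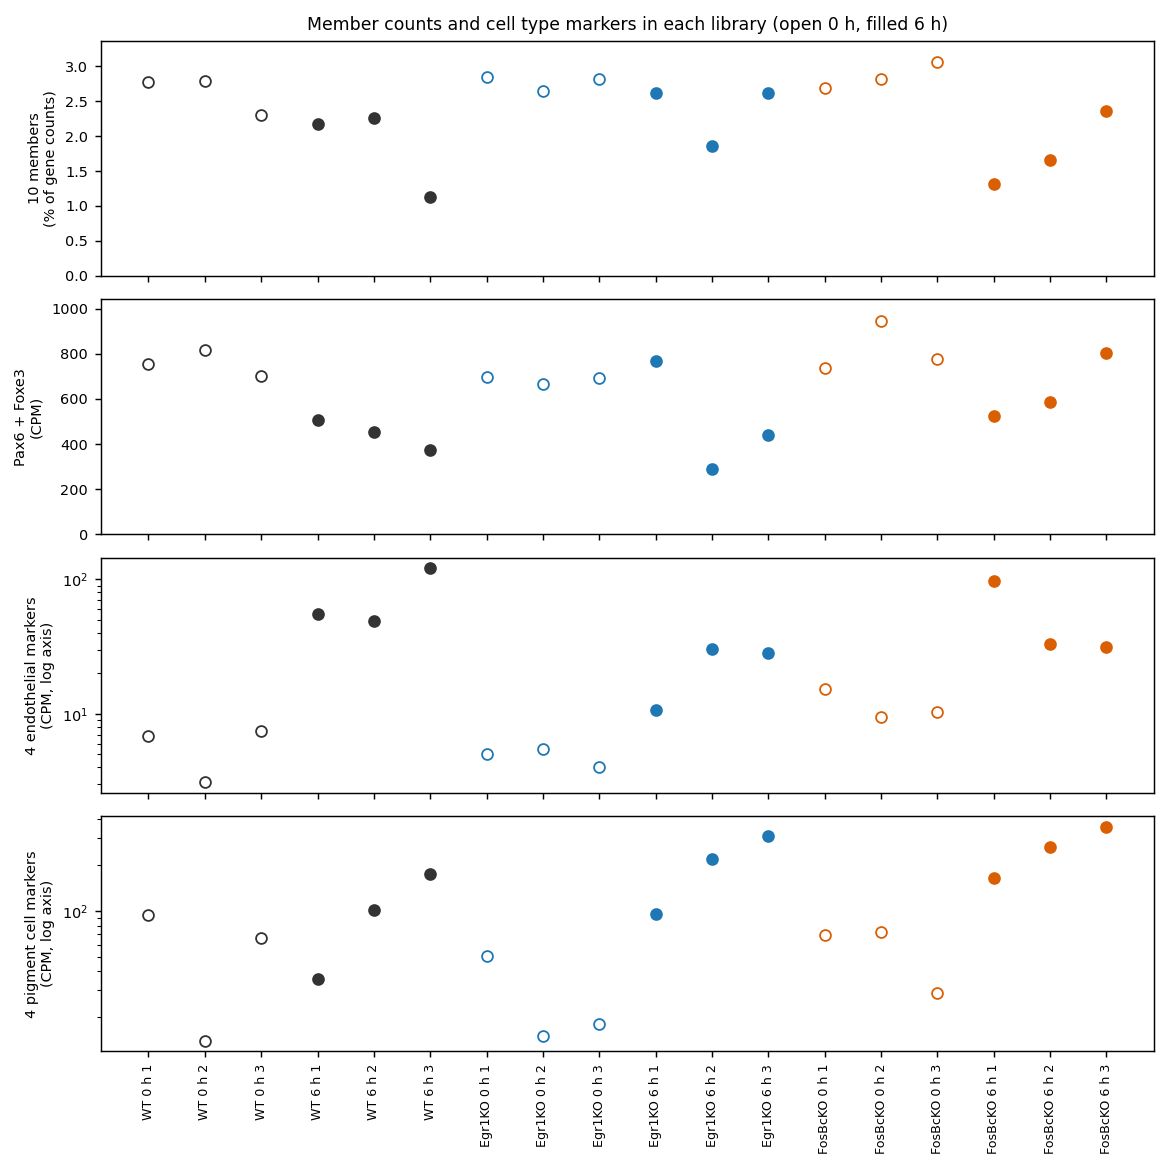
The 4 panels plot per library the share of gene counts in the 10 capsule genes (percent), the summed CPM of Pax6 and Foxe3, and the summed CPM of 4 endothelial and of 4 pigment cell markers, the last 2 on log axes. Colors mark the genotypes. Endothelial sums at 0 h (open) lie at 3.11 to 15.4 CPM and at 6 h (filled) at 10.8 to 121 CPM, and the highest one belongs to the library with the lowest share of capsule genes, WT replicate 3.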

How the data were processed

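Libraries were stranded, ribosomal RNA was depleted, and both fragment ends were sequenced. The authors used Hisat2 for alignment and HTSeq-count for counting, and deposited whole-number counts per Ensembl gene without normalization. The study's methods name the GRCm38 assembly and the submitters' processing notes name GRCm39, so no coordinates are given. HTSeq's summary lines stayed out of library sizes and tests. Pairs in no gene were 8.03% to 30.5% of all pairs per library, and unaligned pairs 8.25% to 18.0%. No exon lengths were at hand, so CPM (count divided by the library's gene total, times 1000000) are not compared between genes.

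Tests used edgeR 4.0.16 in R 4.3.3 on all genes kept by filterByExpr, with TMM scaling, robust dispersions and Benjamini-Hochberg adjustment. The quasi-likelihood F-test served for time and interactions and the exact test for knockout against WT, as the study's methods do for its first WT analysis and its knockout analyses. Each comparison within a genotype or time used its 6 libraries. Standard errors come from the quasi-likelihood fit. A call needed an FDR of at most 0.05; the study's rule adds a change of more than 2-fold, tried as an alternative. Other alternatives were DESeq2 1.42.0, the other edgeR test, other filters and scalings, a replicate block and leaving out each library; library totals, upper quartile scaling and the ratio tests were added after seeing the data. Ratio tests permuted libraries exactly within genotype or time, with a smallest possible p of 0.00025 for time and 0.005 for genotype.

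Replicate numbers of the 2 times were taken to pair libraries where the deviations from group means of every same-numbered pair correlated above 0.1. This held in WT (0.102 to 0.247), and not in Egr1KO (1 of 3 pairs) or FosBcKO (2 of 3). Across genotypes 4 of 18 same-numbered pairs were above 0.1, as were 8 of 36 pairs of different numbers (highest 0.367). Between the 2 times of a genotype 0 of 6 pairs of different numbers were, in each of WT, Egr1KO and FosBcKO.

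All 10 genes were to be named, with at most 4 genes per list beyond them (all where called), the 5 most alike to Col4a1, and Egr1 and Fosb. Itgb1, Col18a1 in single libraries and the genes most alike to Lamc1 were chosen after their values were seen. The members and lists were chosen with earlier results of these data known. A gene of the list of other basement membrane components is not reported here and is left out of that list's counts.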

Additional observations from a re-analysis of the deposited data

How the results depend on the processing

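Across the alternatives, 0 estimates of the 10 genes in the 10 comparisons turned from one called direction to the other, and the count of genes called was 0 in every alternative for each knockout against WT and each interaction. In WT over time, against 0 called, DESeq2 called 1, the fit with no filter 1 and the replicate block 2. In FosBcKO over time, against 0, the exact test called 4, DESeq2 6, no filter 7, library totals without TMM 4 and upper quartile scaling 4. Over the 3 genotypes, against 5, no filter called 9, the 2-fold minimum 0, library totals 8 and upper quartile scaling 8. Where the replicate number was not taken as a pairing, the replicate block called 7 genes in FosBcKO, 0 in Egr1KO and 9 over the 3 genotypes. The labels give no pairing in any genotype. Each FosBcKO library correlated best with the one of its own number at the other time, and this was not so in Egr1KO. Leaving out 1 library gave 0 to 1 calls in WT, 0 to 2 in Egr1KO, 0 to 9 in FosBcKO and 5 to 9 over the 3 genotypes. Without a filter more genes with few counts entered the fit. The cause of these shifts was not tested. Scaling by library totals moved the median of all genes by 0.11 in WT over time, -0.21 in Egr1KO and -0.12 in FosBcKO against WT at 6 h, and -0.14 in the Egr1KO interaction. The lowest count of any of the 10 genes in a library was 846, of Lamb1 in WT replicate 3 at 6 h.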
